A study of Mus musculus with 4 samples.

Results

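The genes of the mitochondrial genome were taken as all genes of the count files whose symbol starts with mt-, which gave 37 of 53465 genes, namely 13 protein-coding genes, 2 ribosomal RNA (rRNA) genes and 22 transfer RNA (tRNA) genes. They were measured by RNA sequencing of frozen mouse heart ventricles at postnatal day 1, in 2 libraries labelled CKO and 2 labelled WT. CKO mice were Ctnnb1floxP/floxP and alphaMHC-Cre+, and WT mice were Ctnnb1floxP/floxP and alphaMHC-Cre-, so both groups carried floxed alleles of Ctnnb1, the gene of β-catenin. The alphaMHC promoter drives Cre in cardiomyocytes, other cells of the ventricle keep the gene, and the groups differ in the transgene as well as in the deletion. Nothing in the labels says that the 2 libraries of a group came from separate animals, so p-values measure only the spread between these libraries.

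The mitochondrial genome is a small circle in the matrix of the organelle. It encodes core subunits of the respiratory chain and of ATP synthase, together with the rRNAs and tRNAs needed to translate them. Both strands are transcribed as long precursors by the polymerase Polrmt with the factor Tfam, and tRNAs are cut out between the other genes. In mammals most of the mRNAs and both rRNAs then receive a short poly(A) tail, which is why libraries made from poly(A)-enriched RNA, as here, contain them. The heart, with its dense mitochondria, is known for a high content of these transcripts. Parts of this genome also lie as copies on nuclear chromosomes, and a read that matches a mitochondrial gene and a copy equally well has no unique place.

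Such a copy is printed here for mt-Nd3, a subunit of complex I, because mt-Nd3 had almost no counts while this copy, which differs from it by 1 base, had more in every library. The first 31 bases of mt-Nd3 (chrM:9459-9489, plus strand, GRCm38) and the same stretch of its copy Gm28438 on chromosome 1 are given from the GENCODE vM21 transcripts, with the only base that differs over the 345 bases compared in capitals. The difference is T3C, counted from 1 at the 5′ end of mt-Nd3, with the base of mt-Nd3 first.
mt-Nd3: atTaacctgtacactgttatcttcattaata
Gm28438: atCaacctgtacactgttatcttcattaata
Counts of the tRNA genes were likewise uneven, and the tRNA with nearly all of them is printed beside its neighbour. The proline tRNA mt-Tp lies on the minus strand (chrM:15356-15422) and the threonine tRNA mt-Tt next to it on the plus strand (chrM:15289-15355). Both are 67 bases long and are given in the sense direction from the same source.
mt-Tp: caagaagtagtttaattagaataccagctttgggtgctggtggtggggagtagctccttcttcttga
mt-Tt: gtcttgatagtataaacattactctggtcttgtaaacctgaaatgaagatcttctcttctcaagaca

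The libraries held 45651797 and 34027143 gene counts in CKO and 43288936 and 44624578 in WT. Ctnnb1 itself, counted over the whole gene, had 526 and 460 counts per 1000000 (CPM, scaled by the trimmed mean of M values, TMM) in CKO and 408 and 434 CPM in WT, so it was not lower in CKO (log2 fold change 0.23 ± 0.20 SE, edgeR adjusted p = 0.532). This count does not check the labels, since a transcript that has lost some exons is still counted and cells without Cre add full transcripts. Libraries of a group also differed from each other. Xist, the RNA of the inactive X, had 0.180 and 602 CPM in CKO and 0.257 and 0.327 CPM in WT, the Y-linked Kdm5d had 37.4 and 0 CPM in CKO and 41.3 and 42.4 CPM in WT, and the T cell receptor gene Trbc2 had 0.135 and 0.0338 CPM in CKO and 46.2 and 0.796 CPM in WT. The CKO libraries thus differ in sex-linked RNA and are not repeat preparations of 1 animal, whereas for WT this is not known. CKO 2 alone has high Xist and no Kdm5d, so sex-linked RNA is not balanced between the groups. The part of this imbalance in the results below was not tested. CKO 2 and WT 1 stand apart from the library they share a group with, and results are given below with and without each library. All 12 cardiomyocyte markers were detected, and the most abundant nuclear gene, Myh6, the alpha myosin heavy chain of cardiomyocytes, took 2.34% and 2.26% of gene counts in CKO and 1.97% and 2.07% in WT.

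Mitochondrial genes took a larger share of gene counts in both CKO libraries than in both WT libraries. The 37 genes together had 4657173 and 4888653 counts in CKO and 2273137 and 3415184 counts in WT. This was 10.2% and 14.4% of gene counts in CKO and 5.25% and 7.65% in WT, with exact (Clopper-Pearson) 95% intervals at most 0.0236 percentage points wide, which cover counting error only. The groups did not overlap, although the libraries within each group lay far apart for their depth. The share averaged 12.3% ± 2.95 in CKO and 6.45% ± 1.70 in WT (SD, n = 2 each), a difference of 5.83 percentage points and a ratio of 1.90. The exact permutation test gave p = 0.333 (two-sided), the smallest that 2 libraries against 2 allow, so the design cannot reach 0.05 for a single value of this kind. Without CKO 2 the difference was 3.75 percentage points, without CKO 1 it was 7.91, without WT 1 it was 4.63 and without WT 2 it was 7.03. In bulk tissue a different number of cells of a type and a different amount of RNA per cell cannot be told apart.

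The 3 classes of mitochondrial genes differed in this. Protein-coding genes made up nearly all of the mitochondrial counts, 97.1% and 98.5% in CKO and 95.5% and 96.0% in WT. Their share of gene counts was 9.91% and 14.2% in CKO and 5.02% and 7.35% in WT, again without overlap. The rRNA genes took 0.286% and 0.200% of gene counts in CKO and 0.230% and 0.304% in WT, so here the groups overlapped (exact permutation p = 0.667, two-sided). The tRNA genes took 0.00575% and 0.00893% in CKO and 0.00343% and 0.00357% in WT, without overlap and almost wholly from mt-Tp.

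**Figure D1:**
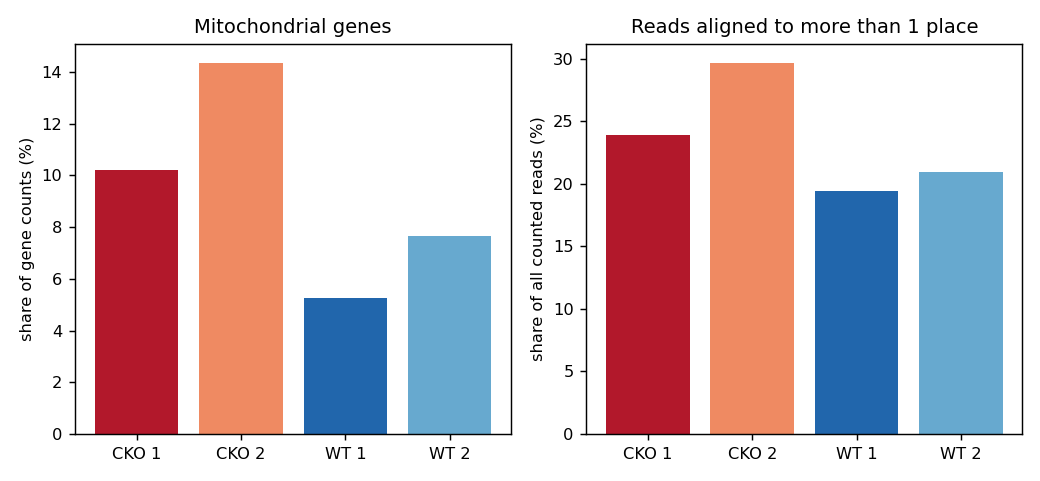
Left, share of gene counts in the 37 mitochondrial genes (percent) and right, share of all counted reads that aligned to more than 1 place (percent), 1 bar per library with CKO left of WT. Both CKO bars stand above both WT bars in each panel, at 10.2% and 14.4% against 5.25% and 7.65% on the left. On the right a read may be held once per place.

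Some other measures differed between the groups as well, but not all followed the mitochondrial share from library to library. Reads aligned to more than 1 place, which are counted for no gene, were 23.9% and 29.7% of all counted reads in CKO and 19.4% and 21.0% in WT, again without overlap. The read counter may hold such a read once per place, so these may be shares of alignments and not of reads. Reads outside genes were fewer in CKO, 4.38% and 3.18% against 6.06% and 6.45% in WT. The summed level of the 12 cardiomyocyte markers was 83512 and 94444 CPM in CKO and 69036 and 63591 CPM in WT, with 7 of 12 higher without overlap and 0 lower, against 26.5% and 29.7% of all 18157 genes tested. The 8 mural cell markers summed to 2158 and 1730 CPM in CKO and 958 and 1131 CPM in WT, although 3 were lower and 1 higher without overlap. The 7 erythroid markers in the files summed to 765 and 662 CPM in CKO and 1091 and 1122 CPM in WT, with 5 lower and 1 higher without overlap, and the 8 T cell markers to 2.14 and 1.62 CPM in CKO and 264 and 6.13 CPM in WT, with all 7 that were tested lower. Sums of the fibroblast, endothelial, macrophage and atrial lists overlapped between the groups, but single markers did not all overlap. Without overlap, 5 of 8 atrial markers were lower and 0 higher, and 5 of 8 macrophage markers were lower and 1 higher. Of 8 endothelial markers 3 were lower and 0 higher, and of 8 fibroblast markers 0 were lower and 2 higher. In all 8 lists 0 markers were at 0 in every library. The part of these measures in the mitochondrial share was not tested.

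Gene by gene, 17 of the 37 passed the filter on low counts, namely all 13 coding genes, both rRNAs and 2 tRNAs. Of these, 6 were under the filter's level of 0.227 CPM in at least 1 WT library and so passed through the CKO libraries, and they are described apart. The remaining account rests on the 10 genes with at least 100 counts in every library, 7 of them coding. At an adjusted p under 0.05, edgeR's quasi-likelihood test called 0 of the 10, against 0.0110% of all 18157 genes tested called higher and 0% called lower. The 2 called genes, Gm8730 and Gm9625, are annotated as processed pseudogenes outside the mitochondrial genome and are named after their values were seen. With no adjustment, 6 of the 10 were higher at p under 0.05 and 0 lower, against 11.8% and 11.2% of all genes. That 6 became 8 without CKO 1, 3 without CKO 2, 2 without WT 1 and 4 without WT 2, 3 with scaling by library totals, 3 with offsets for GC content and length, and 4 with the replicate number as a block. DESeq2 with adjusted p called 8 of the 10 higher and 0 lower, against 6.19% and 4.91% of the genes to which it gave an adjusted p. In TMM-scaled CPM, 8 of the 10 were higher in both CKO libraries than in both WT libraries and 1 was lower, against 26.5% of all genes higher and 29.7% lower. In log2 fold change the 10 had a median of 1.11, and all genes tested had -0.02. In the authors' deposited table, 11 of the 14 mitochondrial genes with an adjusted p were higher at a threshold of 0.05 and 0 lower. The share of all genes higher in that table was 5.83%. These 11 include mt-Co2, mt-Co3 and mt-Atp6, which are not among the 10 and had few WT counts. Of these, mt-Co3 and mt-Atp6 passed the filter used here through CKO.

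**Figure D2:**
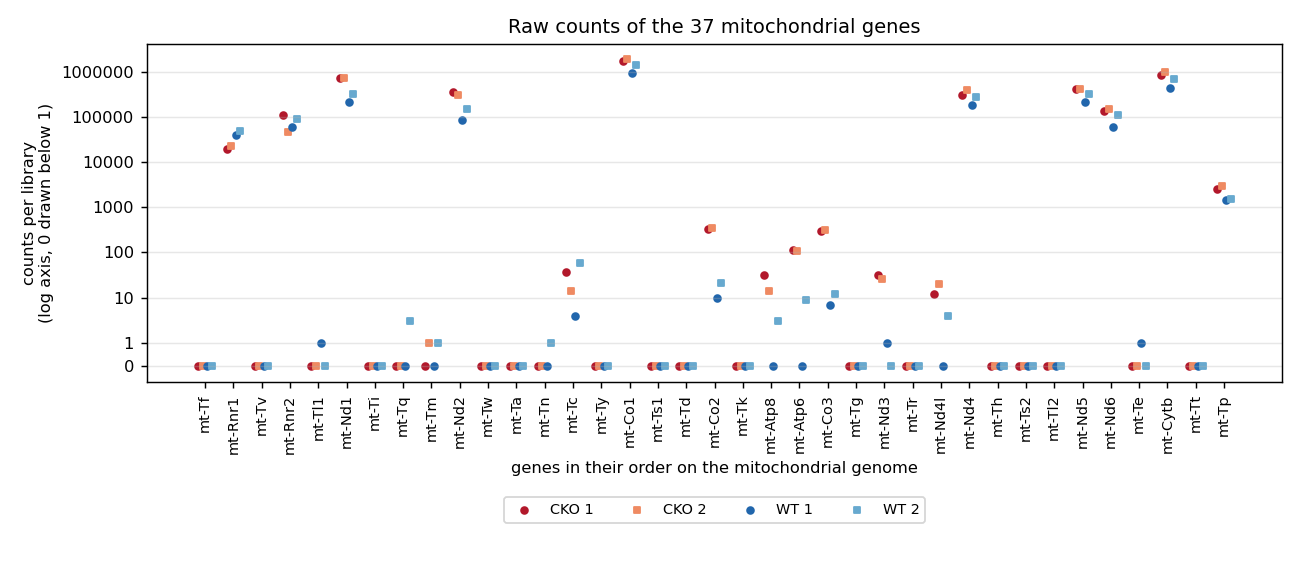
Raw counts of each of the 37 mitochondrial genes in genome order (log axis, with 0 drawn below 1), 4 points per gene for CKO 1, CKO 2, WT 1 and WT 2 from left to right. Counts span 0 to 1880127, and 15 of the 22 tRNA genes lie at 0 in all libraries.

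Complex I, the NADH dehydrogenase that feeds electrons into the chain, has 7 subunits encoded here, and mt-Nd1 and mt-Nd2 had the highest folds among the abundant coding genes. The membrane arm subunit mt-Nd1 (chrM:2751-3707) had 722188 and 711005 counts in CKO and 218776 and 326940 in WT, or 16277 and 24027 CPM in CKO and 4688 and 6676 CPM in WT. Both CKO libraries lay above both WT libraries. Its log2 fold change was 1.83 ± 0.42 (SE), a fold of 3.55, with an edgeR adjusted p of 0.0997. mt-Nd2 (chrM:3914-4951), another subunit of the membrane arm, had 348181 and 301037 counts in CKO and 87402 and 153164 in WT, again without overlap. Its log2 fold change was 1.85 ± 0.39, a fold of 3.60 (edgeR adjusted p = 0.0931). These folds were measured before the adjustment for GC content described below.

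The other abundant complex I genes had smaller folds. mt-Nd4 (chrM:10167-11544), a membrane arm subunit that pumps protons, had 308351 and 384861 counts in CKO and 183936 and 278576 in WT (log2 fold change 1.05 ± 0.44, edgeR adjusted p = 0.220). mt-Nd5 (chrM:11742-13565), the pumping subunit at the far end of that arm, had 413605 and 406189 counts in CKO and 215908 and 317236 in WT (1.05 ± 0.39, adjusted p = 0.181). mt-Nd6 (chrM:13552-14070) is the one coding gene on the minus strand and overlaps the end of mt-Nd5. It had 135314 and 148721 counts in CKO and 59757 and 111110 in WT (1.19 ± 0.41, adjusted p = 0.168). The library kit marks strand, but the strand setting of the counting is not given in the sources used here, so reads of mt-Nd6 and of transcripts opposite to it may not be told apart. All 3 genes had higher counts in each CKO library than in each WT library.

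The abundant genes of the later complexes lay near the median of the group. mt-Cytb (chrM:14145-15288), the cytochrome b of complex III, had 845756 and 984775 counts in CKO and 446768 and 679665 in WT (log2 fold change 1.16 ± 0.47, edgeR adjusted p = 0.215). mt-Co1 (chrM:5328-6872), the catalytic subunit of complex IV, was the gene with the most counts in every library, 1749632 and 1880127 in CKO and 959369 and 1411360 in WT (1.06 ± 0.50, adjusted p = 0.263). Over the 7 abundant coding genes the log2 fold change ran from 1.05 to 1.85 with a median of 1.16, and 5 of the 7 had an unadjusted p under 0.05. Without CKO 2 the 7 values ran from 0.54 to 1.66, without CKO 1 from 1.36 to 2.13, without WT 1 from 0.81 to 1.59 and without WT 2 from 1.33 to 2.27. Scaled by library totals alone they ran from 0.78 to 1.60, with the median of all genes at -0.26. The 7 genes have a low GC content, which for tested mitochondrial genes was 31.9% to 44.8% against a median of 49.6% over all genes tested. With offsets for GC content and length the 7 values were 0.40 to 1.22.

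The 2 rRNA genes differed from each other, mt-Rnr1 being lower in CKO and mt-Rnr2 overlapping between the groups. mt-Rnr1 (chrM:70-1024), the rRNA of the small mitoribosomal subunit, had 19348 and 22112 counts in CKO and 38996 and 47618 in WT. In CPM this was 436 and 747 in CKO and 836 and 972 in WT, and it was the one abundant mitochondrial gene that was lower in both CKO libraries than in both WT libraries. Its log2 fold change was -0.61 ± 0.31 (edgeR adjusted p = 0.292), and it was -0.22 without CKO 1, -1.04 without CKO 2, -0.72 without WT 1, -0.49 without WT 2 and -1.32 with the GC and length offsets. mt-Rnr2 (chrM:1094-2675), the rRNA of the large mitoribosomal subunit, had 111354 and 45954 counts in CKO and 60721 and 87872 in WT. In these counts the 2 CKO libraries lay on either side of both WT libraries. In CPM, CKO 1 was the highest at 2510, and CKO 2 at 1553 lay between WT 1 at 1301 and WT 2 at 1794. The groups thus overlapped on both scales (log2 fold change 0.39 ± 0.34, edgeR adjusted p = 0.527, and -0.03 with the GC and length offsets). Counts of mt-Rnr1 per count of mt-Rnr2 were 0.174 and 0.481 in CKO and 0.642 and 0.542 in WT. These are counts from poly(A)-enriched RNA, so they describe the rRNA that this enrichment retained and not the amount of rRNA in the tissue.

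Of the tRNA genes, mt-Tp, whose sequence is printed above, was the one with more than a few counts in every library. It had 2590 and 3023 counts in CKO and 1480 and 1530 in WT. The CKO libraries were both higher (log2 fold change 1.35 ± 0.28, edgeR adjusted p = 0.0925), and the value was 0.90 without CKO 2. The cysteine tRNA mt-Tc had 36 and 14 counts in CKO and 4 and 59 in WT, which overlapped. The other 20 had at most 5 counts over the 4 libraries together. Of these, 15 had 0 counts in every library, mt-Tt among them, which with 3 counts as the limit allows levels of up to 0.0657 and 0.0882 CPM in CKO and 0.0693 and 0.0672 CPM in WT. The remaining 5 were mt-Tl1, mt-Tq, mt-Tm, mt-Tn and mt-Te. A tRNA has no long poly(A) tail and is far shorter than an mRNA, so these libraries were not made to measure it, and as for mt-Nd6 the strand of the reads counted at mt-Tp is not known here.

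**Figure D3:**
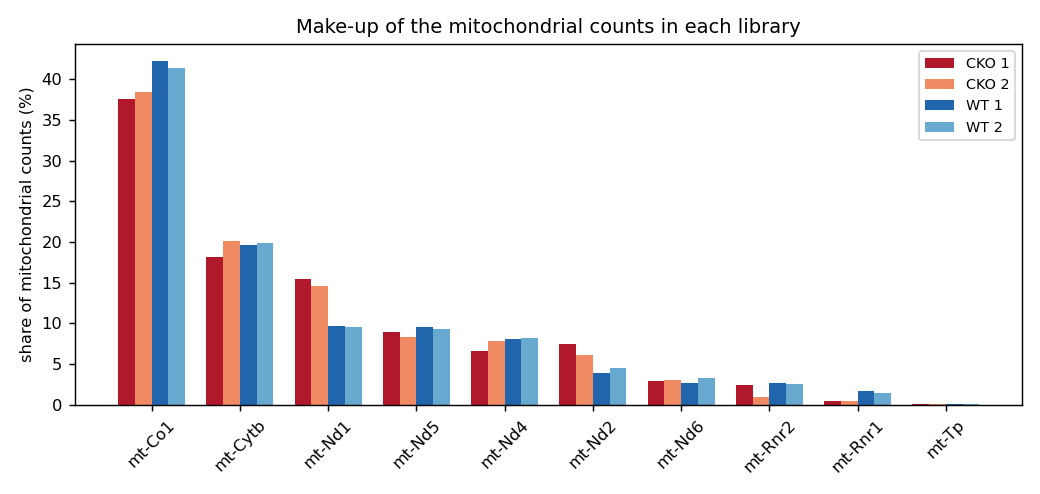
Share of all mitochondrial counts held by each of the 10 abundant genes (percent), 4 bars per gene for CKO 1, CKO 2, WT 1 and WT 2 from left to right. mt-Nd1 and mt-Nd2 held larger shares and mt-Rnr1 a smaller share in both CKO libraries, while mt-Cytb and mt-Nd6 overlapped between the groups.

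Shares within the mitochondrial counts, which do not depend on library scaling, also differed between the groups for several genes. Reads aligned to more than 1 place are in none of these counts, and their share differed between the groups, so genes with nuclear copies, mt-Co1 and mt-Nd4 among them, may be counted in part. The part of this in the shares was not tested. mt-Nd1 held 15.5% and 14.5% of mitochondrial counts in CKO and 9.62% and 9.57% in WT. mt-Nd2 held 7.48% and 6.16% in CKO and 3.84% and 4.48% in WT. The larger shares of these neighbouring genes stood against smaller shares of mt-Co1, with 37.6% and 38.5% in CKO and 42.2% and 41.3% in WT, and of mt-Rnr1, with 0.415% and 0.452% in CKO and 1.72% and 1.39% in WT. mt-Cytb was alike in size, 18.2% and 20.1% in CKO and 19.7% and 19.9% in WT, and mt-Nd6 held 2.91% and 3.04% in CKO and 2.63% and 3.25% in WT. Shares of mt-Nd4 (6.62% and 7.87% in CKO, 8.09% and 8.16% in WT) and mt-Nd5 (8.88% and 8.31% in CKO, 9.50% and 9.29% in WT) were somewhat smaller in CKO without overlap. Shares are parts of a whole, so larger shares of some genes make those of others smaller.

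Ratios between pairs of genes were formed from the same counts as these shares, so they restate the contrast and are no separate support for it. Counts of mt-Nd1 per count of mt-Co1 were 0.413 and 0.378 in CKO and 0.228 and 0.232 in WT, and those of mt-Nd1 per count of mt-Cytb were 0.854 and 0.722 in CKO and 0.490 and 0.481 in WT. The 2 libraries of a group lay close together on these ratios, although their total mitochondrial shares did not. Counts of mt-Nd2 per count of mt-Nd1 were 0.482 and 0.423 in CKO and 0.400 and 0.468 in WT, which overlapped. Counts of mt-Rnr1 per count of mt-Nd1 were 0.0268 and 0.0311 in CKO and 0.178 and 0.146 in WT. mt-Nd6, read from the other strand, had 0.327 and 0.366 counts per count of its neighbour mt-Nd5 in CKO and 0.277 and 0.350 in WT, with overlap. With 2 libraries against 2, an exact permutation test of any such ratio cannot go below p = 0.333.

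Levels between genes were compared per length, as gene counts scaled to gene length and to all gene counts of the library (RPKM). The order of mean levels was mt-Co1, mt-Cytb and mt-Nd1 in both groups, with mt-Co1 at 30285 ± 7748 RPKM in CKO and 17408 ± 4332 RPKM in WT (SD, n = 2 each). mt-Cytb had 20746 ± 6437 RPKM in CKO and 11168 ± 3035 RPKM in WT. mt-Nd1 followed with 19182 ± 3750 RPKM in CKO and 6468 ± 1679 RPKM in WT. Within each of the 4 libraries mt-Co1 was above mt-Cytb. mt-Cytb was above mt-Nd1 in CKO 2 and in both WT libraries, and slightly below it in CKO 1, at 16194 against 16530 RPKM. mt-Nd2 was 4th in CKO at 7935 ± 831 RPKM and 7th in WT at 2626 ± 963 RPKM. Within a library, mt-Nd2 was above mt-Nd4, mt-Nd5 and mt-Nd6 in both CKO libraries and below all 3 in both WT libraries. In CKO 2 the margin was narrow, with mt-Nd2 at 8523, mt-Nd6 at 8421 and mt-Nd4 at 8208 RPKM. Levels of mt-Rnr2, mt-Tp and mt-Rnr1 were the lowest of the 10, at 1198 ± 487, 1086 ± 339 and 562 ± 167 RPKM in CKO and 1066 ± 253, 511 ± 1.03 and 1030 ± 123 RPKM in WT. A read aligned to more than 1 place is in none of these levels, and how many such reads belong to mt-Co1 or mt-Nd4, which share windows with nuclear transcripts, was not tested.

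The 6 remaining coding genes were nearly absent from the counts, although they lie on the same precursor as the abundant ones. Together they had 818 and 834 counts in CKO and 18 and 49 in WT, at most 0.0176% of mitochondrial counts in any library. They are the complex IV subunits mt-Co2 and mt-Co3, the ATP synthase subunits mt-Atp8 and mt-Atp6, and the complex I subunits mt-Nd3 and mt-Nd4l. In 5 of the 6, nearly every 50-base window of the gene also occurs in a nuclear transcript of GENCODE vM21: 100% for mt-Co2, 99.9% for mt-Co3, 99.5% for mt-Atp6, 98.8% for mt-Nd4l and 98.0% for mt-Nd3. For mt-Atp8 it was 0%, but only annotated transcripts were searched and not the nuclear genome, and its end overlaps mt-Atp6, where a read belongs to no single gene. Among the abundant coding genes the share was 62.2% for mt-Nd4, 51.1% for mt-Co1, 8.19% for mt-Nd2, 7.61% for mt-Nd5 and 0% for mt-Nd1, mt-Nd6 and mt-Cytb. The read length is not given in the sources used here, so 50 bases is a chosen window and not the length of a read.

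**Figure D4:**
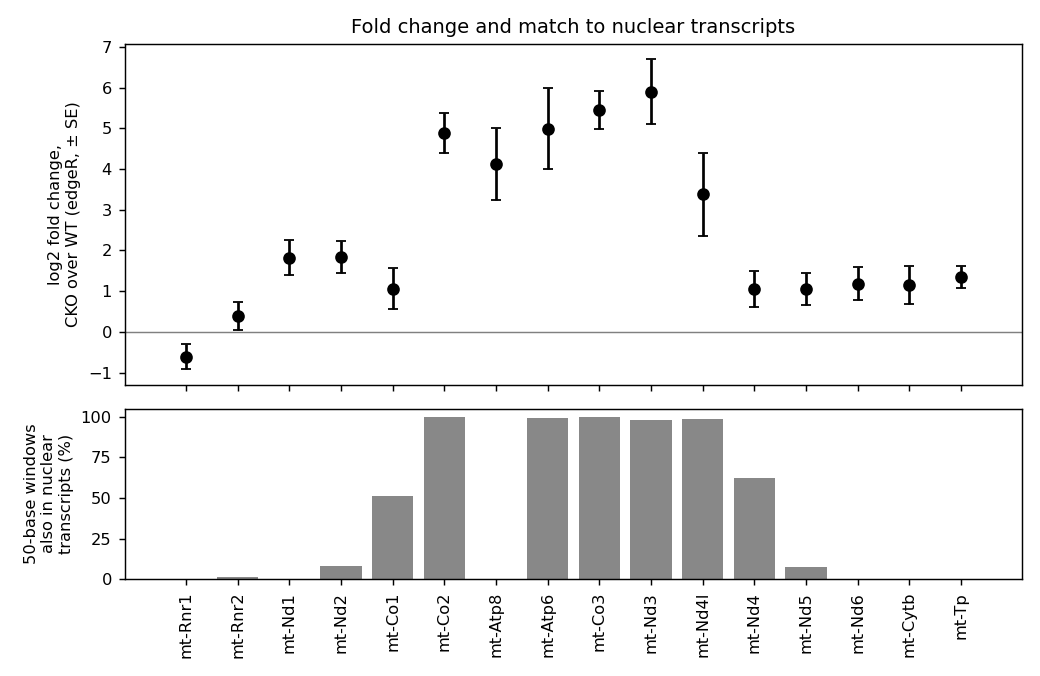
Above, edgeR log2 fold change of CKO over WT with its SE for 16 mitochondrial genes in genome order and below, the share of their 50-base windows that also occur in nuclear transcripts (percent). The 5 genes with shares of 98.0% or more have log2 fold changes of 3.38 to 5.90. In this range also lies mt-Atp8 at 0%, for which only annotated transcripts were searched. The 7 abundant coding genes lie between 1.05 and 1.85.

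In these 6 genes the few counts that were left lay almost wholly in the CKO libraries. mt-Co3 (chrM:8607-9390) had 304 and 317 counts in CKO and 7 and 12 in WT, and mt-Co2 (chrM:7013-7696), which holds the copper centre that takes electrons from cytochrome c, had 327 and 350 in CKO and 10 and 21 in WT. mt-Atp6 (chrM:7927-8607), part of the proton channel of ATP synthase, had 112 and 107 counts in CKO and 0 and 9 in WT, and mt-Atp8 (chrM:7766-7969) had 31 and 14 in CKO and 0 and 3 in WT. mt-Nd3 (chrM:9459-9806) had 32 and 26 counts in CKO and 1 and 0 in WT, and mt-Nd4l (chrM:9877-10173) had 12 and 20 in CKO and 0 and 4 in WT. The groups did not overlap in any of the 6, and all CKO values were above the 3 counts taken as the limit of a 0.

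Folds of these genes rest on few WT counts. Set against library size, the ratio of summed counts, CKO over WT, was 42.3 for mt-Co3 (exact 95% interval 26.8 to 70.7, counting error only), 28.2 for mt-Co2 (19.7 to 41.9) and 31.5 for mt-Atp6 (16.3 to 69.7). For mt-Atp8, mt-Nd4l and mt-Nd3, with 3, 4 and 1 counts in WT, it was 19.4 (6.23 to 97.6), 10.3 (3.67 to 40.3) and 75.0 (12.9 to 3013). Fitted log2 fold changes ran from 3.38 for mt-Nd4l to 5.90 for mt-Nd3, with 4.88 ± 0.50 for mt-Co2 and 5.45 ± 0.47 for mt-Co3 (edgeR adjusted p = 0.0925 for both). Leaving out 1 WT library moved several of them widely: without WT 1 and without WT 2 the value was 2.46 and 7.23 for mt-Nd4l, 4.04 and 9.95 for mt-Atp6, 3.21 and 7.58 for mt-Atp8, and 8.04 and 5.04 for mt-Nd3. Among the 6, all but mt-Co2 passed the filter only through CKO, so their number above WT was in part set by that filter and supports nothing by itself. How the reads counted for these genes differ from reads aligned to more than 1 place was not tested.

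The nuclear copies had counts of their own, whose origin in the copy or in the mitochondrial gene was not tested. GENCODE vM21 has 11 nuclear genes that match at least 50% of their length to a mitochondrial coding gene at 95% identity or more, and all 11 passed the filter. Of these, 7 lie in 1 block on the minus strand of chromosome 1 (chr1:24611535-24616197), 3 on chromosome 2 and 1 on chromosome 13, and 5 are identical to the mitochondrial gene over the part compared. The identical stretches are 783 bases for Gm28437 and mt-Co3, 681 for Gm28661 and mt-Co2, 678 for Gm10925 and mt-Atp6, 294 for Gm10222 and mt-Nd4l, and 876 for Gm28439 and mt-Nd4, the last being 63.6% of mt-Nd4. A read inside such a stretch cannot be told apart by its letters, and the counts of these genes and of their mitochondrial partners are therefore uncertain.

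Counts over the 11 copies summed to 2576 and 2461 in CKO and 681 and 1112 in WT, of which the chromosome 1 block held 1273 and 1201 in CKO and 418 and 635 in WT. Gm13340, the copy of mt-Co1 on chromosome 2, had the most, 917 and 878 in CKO and 215 and 376 in WT. Gm28438, the copy of mt-Nd3 printed above, had 506 and 526 counts in CKO and 273 and 425 in WT, more in every library than mt-Nd3 itself (32 and 26 in CKO, 1 and 0 in WT). Its log2 fold change of 1.00 ± 0.33 (edgeR adjusted p = 0.157) was well below the 5.90 ± 0.80 fitted for mt-Nd3. That fit for mt-Nd3 rests on few WT counts. Gm28438 lay near the lowest of the abundant mitochondrial coding genes, 1.05, but most other copies had higher values. Over the 11 copies the log2 fold change ran from 0.66 to 3.28, and edgeR called 0 at an adjusted p under 0.05. In CPM, 10 of the 11 were higher in CKO without overlap, against 26.5% of all genes. Gm4076, Gm13339 and Gm28439, all among the 10, were under the filter's 0.227 CPM in at least 1 WT library. They passed through CKO, so this number and the median were in part set by the filter and support nothing by themselves.

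**Figure D5:**
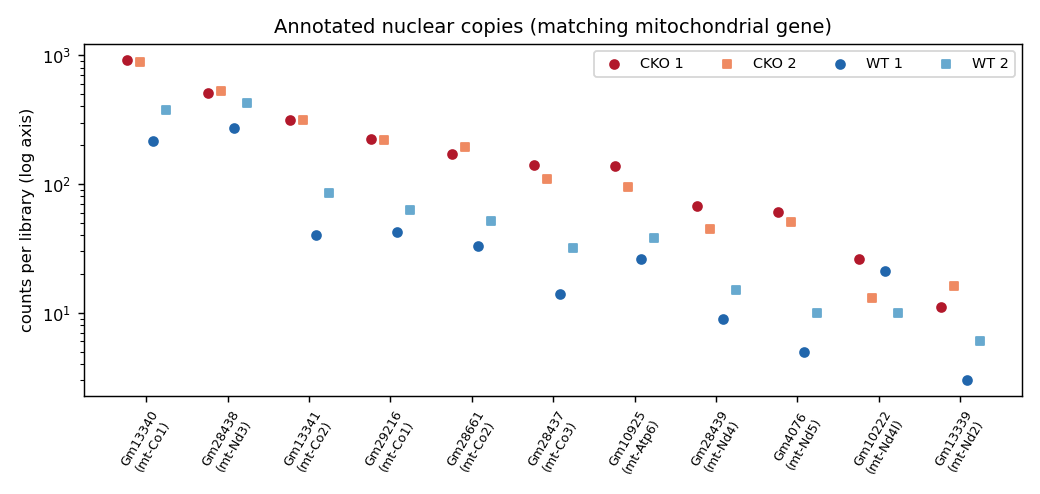
Counts of the 11 annotated nuclear copies (log axis), each named with the mitochondrial gene it matches, 4 points per copy for CKO 1, CKO 2, WT 1 and WT 2 from left to right. CKO points lie above WT points for 10 of the 11, the exception being Gm10222, and Gm13340 reaches 917 counts in CKO.

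Nuclear genes that act on the mitochondrial genome did not move as a block. Of 20 genes of mitochondrial transcription and replication, edgeR called 0 after adjustment, and with no adjustment 1 was higher and 3 lower, near the 11.8% and 11.2% of all genes. Their median log2 fold change was 0.01, against -0.02 for all genes tested. Polg, the catalytic subunit of the mitochondrial DNA polymerase, had 51.6 and 55.0 CPM in CKO and 88.7 and 76.7 CPM in WT (log2 fold change -0.63 ± 0.16, edgeR adjusted p = 0.113). Its accessory subunit Polg2 had 3.76 and 4.63 CPM in CKO and 7.46 and 6.43 CPM in WT (-0.73 ± 0.29, edgeR adjusted p = 0.206). The mitochondrial RNA polymerase Polrmt had 35.6 and 30.6 CPM in CKO and 47.1 and 44.6 CPM in WT (-0.47 ± 0.16), and Tfam, which packages the genome and opens its promoters, had 51.7 and 56.5 CPM in CKO and 39.1 and 40.5 CPM in WT (0.44 ± 0.15). These 4 are the genes with the smallest p of the list, so that they did not overlap between the groups follows from the choice.

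Of 27 tested genes for the processing and stability of mitochondrial RNA, edgeR called 0 after adjustment. DESeq2 called 4 higher and 0 lower, against 6.19% and 4.91% of the genes to which it gave an adjusted p. With no adjustment 5 were higher in edgeR and 0 lower, against 11.8% and 11.2% of all genes. Their median log2 fold change was 0.31, and it was 0.05 with scaling by library totals and 0.10 without CKO 2. Lrpprc, which with its partner Slirp stabilises mitochondrial mRNAs, had 258 and 237 CPM in CKO and 150 and 142 CPM in WT (log2 fold change 0.76 ± 0.17, edgeR adjusted p = 0.0981). Pnpt1, a polynucleotide phosphorylase that degrades mitochondrial RNA, had 44.7 and 44.2 CPM in CKO and 22.4 and 26.7 CPM in WT (0.86 ± 0.17, adjusted p = 0.0925). Fastkd2, known from human cells to bind the large-subunit rRNA, had 29.6 and 31.0 CPM in CKO and 18.1 and 20.6 CPM in WT, and Trmt10c, a subunit of the RNase that cuts the 5′ ends of the tRNAs, had 26.1 and 36.6 CPM in CKO and 18.8 and 19.1 CPM in WT. These 4 too were chosen by the smallest p, which favours genes whose groups do not overlap.

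The nuclear-encoded partners of the same complexes had a positive median fold change, whose size depended on the scaling and on the libraries kept. Of 75 respiratory chain and ATP synthase genes tested, edgeR called 0 after adjustment and DESeq2 called 29 higher and 0 lower, against 6.19% and 4.91% of all genes. With no adjustment 40 were higher in edgeR and 0 lower, against 11.8% and 11.2% of all genes. That 40 became 15 with scaling by library totals and 27 with the GC and length offsets. In TMM-scaled CPM, 59 of the 75 were higher without overlap and 0 lower, against 26.5% and 29.7% of all genes. Their median log2 fold change was 0.66, against 1.16 for the 7 abundant mitochondrial coding genes, a difference that was not tested. This median stayed above 0 with these scalings and offsets and when any 1 library was left out. It was 0.37 without CKO 2, 0.97 without CKO 1, 0.76 without WT 1, 0.56 without WT 2 and 0.40 with the offsets. The gene with the smallest p was Ndufc1, an accessory subunit of complex I, with 172 and 270 CPM in CKO and 107 and 99.1 CPM in WT (log2 fold change 1.10 ± 0.25, edgeR adjusted p = 0.0996). Ndufa12, another accessory subunit of complex I, had 209 and 316 CPM in CKO and 137 and 121 CPM in WT (1.03 ± 0.25). Atp5j, coupling factor 6 of ATP synthase, had 534 and 781 CPM in CKO and 331 and 325 CPM in WT (1.00 ± 0.25), and Ndufs4, an assembly-stabilising subunit of complex I, had 170 and 239 CPM in CKO and 113 and 116 CPM in WT (0.84 ± 0.22). These 4 were again those with the smallest p. In Ndufc1, Ndufa12, Atp5j and Ndufs4 alike CKO 2 was the higher of the CKO libraries, which is also the library with the larger mitochondrial share. The WT pair went otherwise. WT 2 had the larger mitochondrial share, but it was below WT 1 in Ndufc1, Ndufa12 and Atp5j and above it in Ndufs4.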

How the data were processed

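RNA of postnatal day 1 ventricles was poly(A)-enriched and made into libraries with a stranded kit, per the labels' protocols. The submitters' processing notes name the aligner STAR 2.5.3a, the read counter HTSeq 0.6.1 and the build GRCm38. Unscaled whole-number counts per gene were deposited by the authors. Read length, annotation release and strand setting were not given in the sources used here. From the series table, the deposited log2 fold change and its adjusted p-value (made by the authors, whose notes name DESeq2 1.18) served for calls in that table alone. Another 15 columns of the series table were not used. HTSeq's summary categories, which hold reads aligned to more than 1 place, reads outside genes and ambiguous reads, together 32.6% and 36.8% of counted reads in CKO and 30.3% and 31.9% in WT, were left out of totals and tests. Whether the first category holds a read once or once per place is not given in the sources used here. If once per place, shares of all counted reads are shares of alignments.

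Of 53465 genes, 53274 matched GENCODE vM21. Counts were tested with edgeR 4.0.16 (filterByExpr, which kept 18157 genes, TMM scaling, quasi-likelihood test, Benjamini-Hochberg adjustment at 0.05) in R 4.3.3, CKO against WT with no covariate, over 2 libraries a group. An error given with a log2 fold change is the SE. TMM factors were 0.972 and 0.870 in CKO and 1.08 and 1.10 in WT. Shares were compared with an exact permutation test. Nuclear copies were found with blastn 2.17.0 among GENCODE vM21 transcripts (95% identity over 50% of the copy). Scripts were tested on simulated data.

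Values are given per library for the mitochondrial genes with 100 counts in every library, for nuclear copies with 100 counts in some library, for the 4 genes with the smallest p in each of 3 nuclear lists, and for Ctnnb1. Values of the rarer mitochondrial coding genes and tRNAs, and of Xist, Kdm5d, Trbc2 and Myh6 as library checks, were added outside that rule. Members and lists were chosen with earlier results of these data known. Alternatives were DESeq2 1.42.0, limma-voom 3.58.1, other scalings, no filter, GC and length offsets, the replicate number as a block, and leaving out each library.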

Additional observations from a re-analysis of the deposited data

Results flagged for a closer look

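Reads aligned to more than 1 place, which enter no gene count, were 23.9% and 29.7% of counted reads in CKO and 19.4% and 21.0% in WT, a difference of 6.60 percentage points between the group means. They lie outside the gene counts, and both CKO libraries were above both WT libraries. What they align to cannot be read from the counts, and their part in the mitochondrial results was not tested.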

How the results depend on the processing

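The higher mitochondrial share in CKO had differences from 3.54 (share of all counted reads) to 7.91 percentage points (without CKO 1) over the alternatives run. Both CKO shares lie above both WT shares, so leaving out 1 library could not reverse the direction. The rRNA genes and the nuclear copies hold too few counts to reverse it. These alternatives thus show the size of the difference and do not test its direction. With 2 libraries a group, edgeR called 0 mitochondrial genes at an adjusted p under 0.05, and limma-voom also called 0. At an unadjusted p 12 of 17 tested were higher, against 11.8% of all genes, but 5 of the 17 are rare coding genes that passed the filter through CKO alone, and 6 of the 12 are among the 10 abundant genes. Calls numbered 8 with no filter on low counts, 11 with DESeq2 and 2 (mt-Co2 and mt-Co3) with the replicate block. Rare coding genes are among the 8 and are 3 of the 11. Over all genes the 2 calls became 554 with no filter, 1758 with DESeq2, 0 with limma-voom, 18 with the replicate block and 0 with the block and the GC and length offsets together. Same-numbered libraries did not deviate together (correlation -0.116 over 18157 genes), so they share only a number. Replicate numbers crossed as a block, chosen after seeing the data, gave 7 mitochondrial and 942 calls in all. Leaving out 1 library at a time gave 0 to 30 calls over all genes, 7 (without WT 1) to 14 (without CKO 1) mitochondrial genes higher at an unadjusted p, and a median log2 fold change of 0.90 (without CKO 2) to 2.11 (without WT 2) against 1.35 with all libraries, over the mitochondrial genes tested. For the 10 abundant genes that median was 1.11, with 0.73 (without CKO 2) to 1.52 (without CKO 1) when 1 library was left out and 0.60 with the GC and length offsets. mt-Rnr2 changed sign with the GC and length offsets, to -0.0338, and with these and the replicate block, to -0.08545. The cause of these shifts was not tested. The other tested mitochondrial genes apart from mt-Tc, which was not followed, kept their direction in each alternative. Values of the 6 rare coding genes and of the tRNAs other than mt-Tp rest on few counts, and why these are few was not tested.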
